A study of Mus musculus with 4 samples.

Results

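The AP-1 transcription factors described here are 9 genes, of 19938 with a probe set that carries 1 gene symbol: Fos, Fosb, Fosl1 and Fosl2 of the Fos family, Jun, Junb and Jund of the Jun family, and the related factors Jdp2 and Batf3. They were chosen by symbol, and each had a single probe set. RNA was measured on Affymetrix Mouse Gene 1.0 ST arrays in RAW 264.7, a macrophage-like cell line of the mouse that can become osteoclasts under RANKL, the osteoclast-inducing cytokine, and M-CSF, a macrophage growth factor. The 4 groups were cells with a vector expressing the microRNA miR-155 after 72 h of RANKL and M-CSF (20 ng/ml), the same miR-155 cells unstimulated, cells with a control vector after the same 72 h, and unstimulated control-vector cells. In the series text the controls are named wild-type, but the descriptions of the samples give a control vector; the sources used here do not state whether either line is a clone or a pool. Each group has 1 array. Differences between 2 arrays are therefore descriptions without replicates and carry no p-value, and precision is limited by how few arrays there are.

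AP-1 is a dimer of basic leucine zipper proteins. Fos proteins dimerise with Jun proteins, Jun proteins also pair with each other, and Jdp2 and Batf3 join Jun partners in dimers that often restrain transcription. RANKL signalling through MAP kinases raises Fos in osteoclast precursors, and Fos-containing AP-1 helps to switch on Nfatc1, the leading osteoclast regulator; mice without Fos lack osteoclasts. Fos messenger RNA has been reported elsewhere as a target of miR-155.

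The sequences of the microRNA and of the DNA upstream of the members that the results turn on come from RefSeq (build GRCm38.p6). The mature microRNA is shown with its seed, bases 2 to 8, in capitals, because the vector is named for it. Target sites in the messenger RNAs were not analysed here.
mmu-miR-155-5p, chr16:84714143-84714165, plus strand: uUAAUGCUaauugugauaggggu

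Upstream windows of 300 bases, 250 before the start of a gene and 50 after it, were matched for 8 of the 9 members, Fosl1 being the one named only. Jdp2 has 3 such windows and the others 1 each, 10 in all. They were searched on both strands for TGANTCA, the AP-1 element, TGACGTCA, the cyclic AMP response element, TGACATCA, the variant known from the Jun promoter, TGACG, the core of the cyclic AMP element, and TATAAA, the TATA box. TGACG lies inside TGACGTCA. TGANTCA and TGACGTCA were found in 0 of the 10 windows, against 7.81% and 1.79% of all 32851 windows. TGACATCA was found in that of Jun (3.62% of all windows), TGACG in 4 (Fos, Fosb, Junb and the second of Jdp2; 20.8% of all) and TATAAA in 2 (Fos and Junb; 13.6% of all). The 150 bases before the start are printed for the members with a match at their only start, and for Fosl2, the member with the largest response. Capitals mark the matches.
Fos, chr12:85473740-85473889, plus strand: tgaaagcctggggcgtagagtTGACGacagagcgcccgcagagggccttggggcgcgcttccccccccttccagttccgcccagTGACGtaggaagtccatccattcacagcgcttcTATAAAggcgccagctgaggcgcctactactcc
Fosb, chr7:19310046-19310195, minus strand: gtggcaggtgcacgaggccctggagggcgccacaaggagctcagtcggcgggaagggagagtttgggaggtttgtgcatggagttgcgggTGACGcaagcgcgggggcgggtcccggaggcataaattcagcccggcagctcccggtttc
Junb, chr8:84978749-84978898, minus strand: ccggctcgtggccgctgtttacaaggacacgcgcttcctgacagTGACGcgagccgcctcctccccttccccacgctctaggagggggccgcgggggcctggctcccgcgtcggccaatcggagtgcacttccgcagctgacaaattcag
Jun, chr4:95052223-95052372, minus strand: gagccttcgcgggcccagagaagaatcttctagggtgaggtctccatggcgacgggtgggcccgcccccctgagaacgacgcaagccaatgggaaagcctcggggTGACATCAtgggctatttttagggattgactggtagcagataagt
Fosl2, chr5:32136322-32136471, plus strand: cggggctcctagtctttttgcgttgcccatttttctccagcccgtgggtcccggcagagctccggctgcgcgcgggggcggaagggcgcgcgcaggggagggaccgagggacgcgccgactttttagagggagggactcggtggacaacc
In Fos, TGACG began 129 and 66 bases and TATAAA 33 bases before the start. TGACG began 60 bases before the start of Fosb and 106 before that of Junb, and TGACATCA 45 before that of Jun. The TATAAA of Junb begins at the start itself, outside the printed stretch. A match of letters shows no binding, and letters not found in a window say nothing of the factor.

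The deposited values are log2 expression values after RMA normalization. A floor of 4.25 was set at the 95th percentile of 1210 probe sets for olfactory and vomeronasal receptors, which stand for genes not expected in these cells, and 13545 genes had a value above it on at least 1 array. All 9 members passed. The 95th percentile of the receptor probe sets' absolute log2 differences served as a noise reference. As 95% of the receptor values lie at or below the floor, the reference measures neither the spread of expressed genes nor that between cultures. It was 0.41 for stimulation in miR-155 cells, 0.48 for stimulation in control cells, 0.47 between the vectors with stimulation and 0.37 between the vectors without it. Members were counted past 1.5-fold, or 0.58 on the log2 scale. The stimulated control array stood apart, with Pearson correlations over genes of 0.908 to 0.937 with the other arrays, which correlated at 0.982 to 0.989 among themselves. On that array the macrophage markers had their lowest average and the osteoclast markers their highest. Among the macrophage markers Spi1 and Cd68 went the other way, higher by 0.96 and 0.29 with stimulation in control cells (log2). Macrophage markers, all 10 above the floor on each array, averaged 10.39 in stimulated and 10.62 in unstimulated miR-155 cells, against 8.20 in stimulated and 10.60 in unstimulated control cells (log2). The 10 osteoclast markers averaged 9.01 and 5.48 in miR-155 cells and 10.88 and 5.86 in control cells, in the same order. Calcr, an osteoclast marker, was above the floor on 1 array only. The part of these markers in the results below was not tested. Of the granulocyte and mast cell markers at most 1 of 7 was above the floor on any array, of the T and B cell markers 2 of 6, and of the fibroblast and osteoblast markers 4 or 5 of 6. In bulk RNA of this kind, fewer cells of a type and less RNA per cell cannot be told apart.

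After 72 h of RANKL and M-CSF, Fosl2 and Jdp2 were the members with the largest increases, and they were the only members past 1.5-fold in both miR-155 and control cells. Fos, Junb, Jund and Fosb were past 1.5-fold higher in control cells, and none of these 4 was past 1.5-fold in miR-155 cells. Jun, Fosl1 and Batf3 stayed within 1.5-fold in both. The plot of the members' levels shows these patterns array by array.

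**Figure D1:**
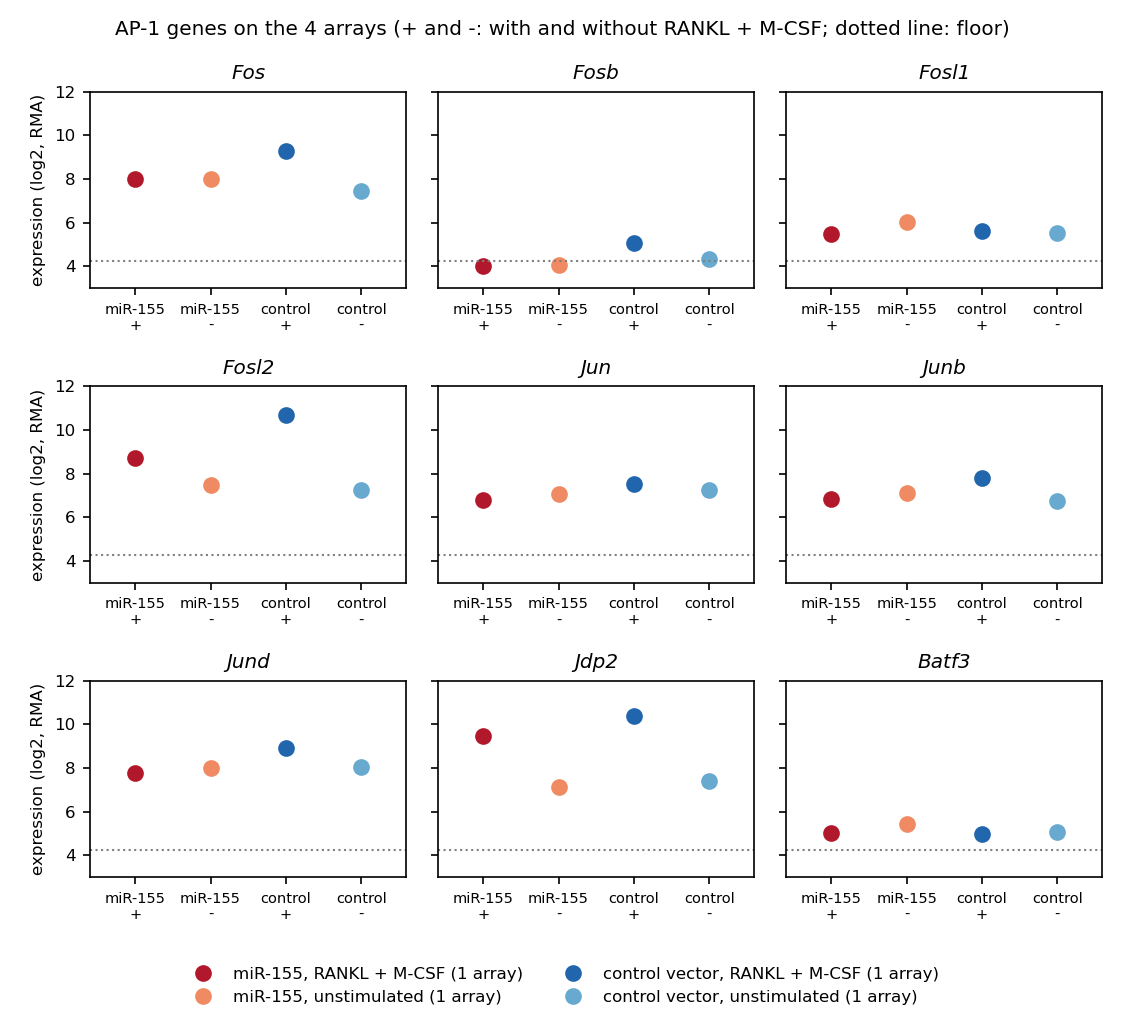
Expression of the 9 AP-1 genes (log2 RMA values, 1 point per array) in miR-155 and control-vector cells with (+) and without (-) RANKL and M-CSF; the dotted line is the floor of 4.25. Fosl2 and Jdp2 are high on both stimulated arrays, whereas Fos, Junb and Jund are highest on the stimulated control array alone.

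Fosl2 encodes Fra-2, a Fos-family protein known in mice to bear on osteoclast survival and size. Its level was 8.74 in stimulated and 7.47 in unstimulated miR-155 cells, against 10.70 in stimulated and 7.23 in unstimulated control cells (log2). The unstimulated arrays were close to each other, and the stimulated miR-155 array lay between them and the stimulated control array. The difference with stimulation was 1.26 in miR-155 cells, or 2.40-fold, and 3.47 in control cells, or 11.1-fold. From the top of all 13545 genes these differences ranked 97 in miR-155 cells and 48 in control cells.

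Fos, the founding member and the partner tied most firmly to osteoclast formation, followed another pattern. Its level was 7.999 in stimulated and 7.999 in unstimulated miR-155 cells, against 9.29 in stimulated and 7.47 in unstimulated control cells. The miR-155 arrays were thus nearly equal and both lay between the control arrays. The difference with stimulation was 0.00 in miR-155 cells and 1.82 in control cells, or 3.54-fold, where it ranked 278 from the top.

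Fosb, a close relative of Fos that also acts in bone-forming cells, was the member nearest the floor. It lay below the floor in miR-155 cells, at 4.02 with and 4.07 without stimulation, and read 5.09 in stimulated and 4.33 in unstimulated control cells. It was thus above the floor on 2 of 4 arrays. The difference with stimulation in control cells was 0.76, or 1.69-fold, and no fold is given for miR-155 cells.

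Fosl1 encodes Fra-1, which can take the place of Fos in osteoclast formation in mice and is itself a Fos target. Its level was 5.49 in stimulated and 6.03 in unstimulated miR-155 cells, against 5.63 and 5.53 in control cells. The unstimulated miR-155 array was the highest of the 4. The difference with stimulation was -0.54 in miR-155 cells, past the noise reference though within 1.5-fold, and 0.10 in control cells.

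The 3 Jun genes were alike in miR-155 cells and graded in control cells. Junb, a Jun-family member that often restrains Jun, read 6.84 in stimulated and 7.10 in unstimulated miR-155 cells, against 7.79 in stimulated and 6.74 in unstimulated control cells. Jund, the Jun protein linked to slow growth, read 7.75 and 8.01 in miR-155 cells, against 8.90 and 8.03 in control cells, stimulated first. Jun itself read 6.799 and 7.07 in miR-155 cells, against 7.53 and 7.24 in control cells. For each of the 3 the stimulated control array was the highest. The difference with stimulation in miR-155 cells was -0.27 for Junb, -0.26 for Jund and -0.27 for Jun, all within the noise reference. In control cells it was 1.05 for Junb (2.07-fold), 0.87 for Jund (1.83-fold) and 0.29 for Jun, the last within the noise reference.

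Jdp2, a Jun dimerisation protein needed for full osteoclast formation in mice, kept most of its response in miR-155 cells. Its level was 9.47 in stimulated and 7.14 in unstimulated miR-155 cells, against 10.40 in stimulated and 7.40 in unstimulated control cells. Both stimulated arrays were far above both unstimulated ones. The difference was 2.33 in miR-155 cells, or 5.02-fold, and 3.01 in control cells, or 8.04-fold, ranking 25 and 83 from the top. On the log2 scale the response in miR-155 cells was 77.4% of that in control cells, whereas for Fosl2 it was 36.4%. Among reported AP-1 targets it was 104% for Ctsk, 92.2% for Acp5, 69.5% for Mmp9 and 60.9% for Nfatc1, all picked by name. These shares do not stand for all reported targets, which were uneven. Mmp14 differed with stimulation by -0.23 in miR-155 cells and 3.65 in control cells, and Itgb3 by 1.14 and 3.61. Ccl3 went the other way, at 1.36 and 1.12. The share for Ctsk starts from an unstimulated level of 4.26 in miR-155 cells, just above the floor, against 6.72 in control cells. Its stimulated level was also lower in miR-155 cells, at 11.18 against 13.40. Batf3, known for its role in dendritic cell development, had no difference past 1.5-fold, at 5.05 and 5.43 in stimulated and unstimulated miR-155 cells and 4.97 and 5.09 in control cells.

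Counted together, 2 of 9 members were past 1.5-fold higher with stimulation in miR-155 cells and none lower, where 3.43% of all genes above the floor were higher and 3.74% lower. In control cells 6 of 9 were higher and none lower, where 12.4% of all genes were higher and 15.2% lower. The members' median difference was -0.26 in miR-155 cells and 0.87 in control cells, beside -0.03 and -0.02 for all genes. With each array centred on its median, 58.9% of the genes past 1.5-fold in control cells were on the higher side, against 44.9% here, and the members' counts were again 2 and 6.

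**Figure D2:**
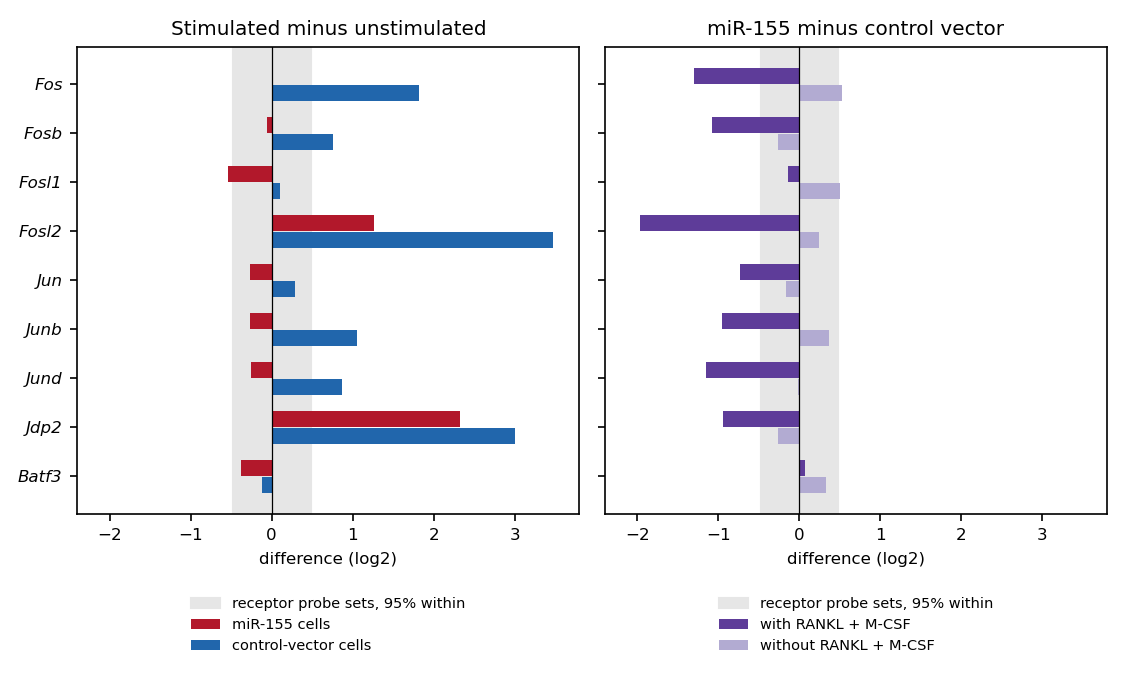
Log2 differences of the 9 AP-1 genes, stimulated minus unstimulated (left, miR-155 cells above control-vector cells) and miR-155 minus control vector (right, with above without RANKL and M-CSF), from 1 array a group; the grey band holds at least 95% of receptor probe sets. Stimulation differences reach 2.33 in miR-155 cells and 3.47 in control cells, and 7 genes lie past 1.5-fold lower with miR-155 under stimulation.

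Of the 8 members above the floor on all 4 arrays, the difference with stimulation was lower in miR-155 than in control cells for 8, as it was for 7156 of 13545 genes. Fosb has no measured response in miR-155 cells and is left out of this comparison. Values were least apart for Batf3 and most apart for Fosl2. The difference of the responses was -2.21 for Fosl2, -1.82 for Fos, -1.32 for Junb, -1.13 for Jund, -0.68 for Jdp2, -0.64 for Fosl1, -0.56 for Jun and -0.26 for Batf3 (log2), beside a noise reference of 0.64. It was past 1.5-fold lower for 6 of the 8 and higher for none, where 13.9% of all genes were lower and 14.5% higher; with array medians centred, 35.6% of the genes past it were on the higher side, against 51.0% here. These values rest in part on the stimulated control array, which stood apart. The interaction leaves no degree of freedom for a test. The plot of the responses sets both stimulation differences side by side; they share no array.

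**Figure D3:**
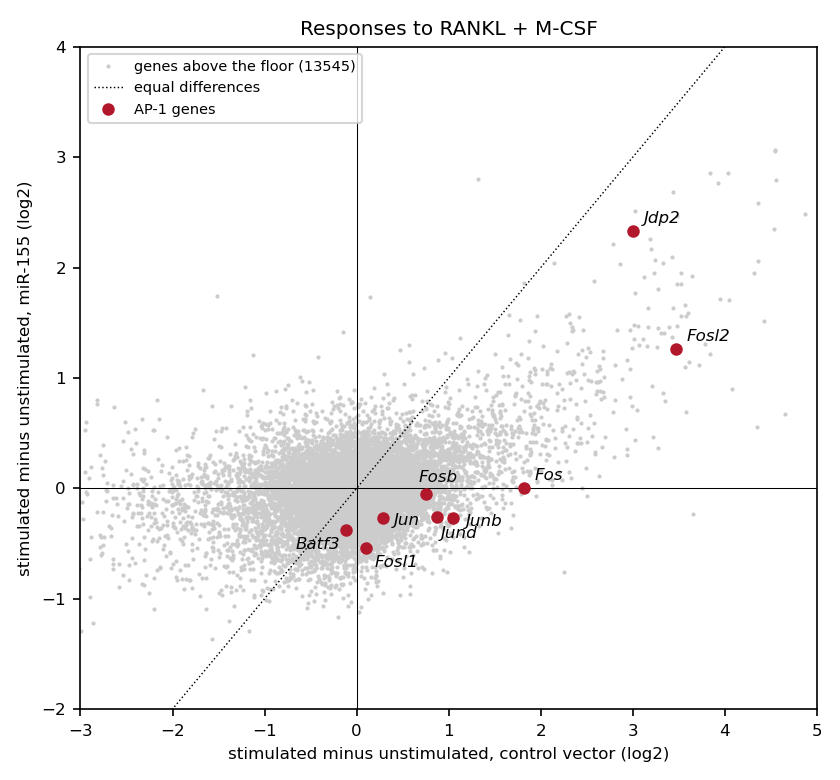
Stimulated minus unstimulated difference (log2) in miR-155 cells (vertical) against control-vector cells (horizontal) for genes above the floor (grey) and the 9 AP-1 genes (red); 59 genes lie outside the axes and the dotted line marks equal differences. The AP-1 genes lie below that line (Fosb is below the floor in miR-155 cells), Jdp2 (2.33 and 3.01) nearest to it among those past 1.5-fold in control cells.

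A limma model with stimulation and vector as additive terms was fitted over the 4 arrays. Its 1 residual degree of freedom holds only the disagreement between both responses, and so carries no spread between cultures. It called 0 of 13545 genes (0%) for stimulation at an adjusted p of 0.05, with 1025 at an unadjusted p under 0.05, and 0 (0%) for miR-155, with 523. Jdp2 and Fosl2 were the 2 members among those 1025, which are 7.57% of all genes. Jdp2 was higher by 2.67 (log2, SE 0.26, limma adjusted p = 0.517) and Fosl2 by 2.37 (SE 0.58, limma adjusted p = 0.647), each with both vectors. No member had an unadjusted p under 0.05 for miR-155, where 3.86% of all genes had.

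Without stimulation, Fos and Fosl1 had the largest differences between miR-155 and control cells among the members. None of the 9 was past 1.5-fold in either direction, where 1.18% of all genes were higher with miR-155 and 3.15% lower, so a count of 0 among 9 is near the share of all genes. With array medians centred the higher side held 44.1% of the genes past 1.5-fold, against 27.3% here. Fos was higher in miR-155 cells by 0.53 (1.44-fold) and Fosl1 by 0.50 (1.41-fold), both past the noise reference of 0.37. Fos ranked 237 and Fosl1 285 from the top of 13545 genes. Junb (0.368), Batf3 (0.34), Fosl2 (0.24), Jund (-0.02), Jun (-0.17) and Jdp2 (-0.26) lay within it. Fosb (-0.26) did too, and was below the floor in miR-155 cells. The members' median was 0.24, beside -0.00 for all genes. With array medians centred, Fos reached 0.59 and passed 1.5-fold.

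With stimulation, 7 of 9 members were past 1.5-fold lower in miR-155 than in control cells and none higher, where 13.6% of all genes were lower and 12.4% higher. The same stimulated control array enters here and in the response of control cells to stimulation, so their values are not independent. The members' median was -0.95, against -0.03 for all genes. Fosl2 had the largest difference, at -1.97 or 3.91-fold lower, followed by Fos at -1.30 (2.46-fold lower) and Jund at -1.15 (2.22-fold lower). Junb stood at -0.95, Jdp2 at -0.94 and Jun at -0.73. Fosb was at least 1.78-fold lower, since its miR-155 value lay below the floor. Fosl1 (-0.14) and Batf3 (0.07) lay within the noise reference.

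The members differed in pattern even where they lie side by side in the genome. Among protein-coding genes of mouse chromosome 12, Fos, Jdp2 and Batf follow one another in that order. Their differences with stimulation were 0.00 for Fos, 2.33 for Jdp2 and -0.25 for Batf in miR-155 cells, and 1.82, 3.01 and -0.19 in control cells. Batf, a relative of Batf3, is not counted among the 9; it read 4.76 and 5.01 in miR-155 cells and 4.97 and 5.16 in control cells, stimulated first. Measured as the root mean square difference of mean-centred levels over the 4 arrays, the closest members above the floor on all arrays were Fosl1 and Batf3 (0.10) and Junb and Jund (0.16), and the farthest were Jdp2 and Batf3 (1.52).

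Other genes with the most similar levels over the 4 arrays were found by the same measure for the members whose levels spanned more than 2-fold, except Fosb, which was below the floor on 2 arrays. With only 4 points, such likeness is common: within 0.2 of Jund lay 621 genes, of Junb 559, of Fos 75, of Fosl2 17 and of Jdp2 1. The nearest to Fos were Sh3pxd2a (0.06), a podosome scaffold, Spry1 (0.06), an inhibitor of receptor tyrosine kinase signalling, and Oit3 (0.09). The nearest to Fosl2 were Ltbp1 (0.08), a latent TGF-beta binding protein, Slc4a2 (0.10), an anion exchanger, and Klhl12 (0.12). Slc4a2 read 9.27 in stimulated and 7.82 in unstimulated miR-155 cells, against 11.04 and 7.76 in control cells. The nearest to Jdp2 were Sema7a (0.13), a membrane-bound semaphorin, Tmem204 (0.20) and Nudt22 (0.22). Sema7a read 6.85 and 4.63 in miR-155 cells, against 7.53 and 4.74 in control cells. For Junb they were Osm, Isca2 and Atox1, and for Jund Hmg20b, Ttyh3 and Rnf215, at 0.02 to 0.06. Osm lay below the floor in stimulated miR-155 cells (4.20) and in unstimulated control cells (4.14).

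The genes around AP-1 were described by 6 lists, which share some genes, among them Dusp1 and Zfp36. Their counts stand beside the shares of all genes past 1.5-fold: 3.43% higher and 3.74% lower with stimulation in miR-155 cells, 12.4% and 15.2% in control cells, and 12.4% and 13.6% between the vectors with stimulation. Of the immediate early genes, which growth signals induce along with Fos, 1 of 19 above the floor was past 1.5-fold higher with stimulation in miR-155 cells and 2 were lower. In control cells 9 were higher and 2 lower. The list's median was -0.13 in miR-155 cells and 0.58 in control cells, beside -0.03 and -0.02 for all genes. Myc, a driver of growth, was the gene higher in both, by 2.85 in miR-155 cells and 4.04 in control cells. The polo-like kinase genes Plk3 (0.06 in miR-155 cells, 1.96 in control cells) and Plk2 (0.02 and 1.63) and the zinc finger factor Egr1 (-0.13 and 1.61) were higher in control cells alone, past 1.5-fold. The Krüppel-like factor genes Klf4 (-0.49 and -1.55) and Klf10 (-0.05 and -1.01) were the 2 lower ones in control cells.

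Of the phosphatases and other brakes on MAP kinases, 1 of 14 was higher and 2 lower with stimulation in miR-155 cells, against 8 higher and 1 lower in control cells (none lower there with array medians centred). Dusp1, which inactivates p38 and JNK, read 7.18 in stimulated and 7.94 in unstimulated miR-155 cells, against 10.13 in stimulated and 7.88 in unstimulated control cells. The stimulated control array was the high one, and the stimulated miR-155 array the lowest of the 4. Its difference with stimulation was -0.76 in miR-155 cells and 2.25 in control cells. Dusp4 (0.63 in miR-155 cells, 2.40 in control cells), Spry1 (0.16 and 1.89) and Dusp5 (0.35 and 1.00) stood higher in control cells as well. The list's median was -0.11 in miR-155 cells and 0.62 in control cells, beside -0.03 and -0.02 for all genes. Between the vectors with stimulation, 10 of 14 were lower in miR-155 cells and 1 higher, where 13.6% of all genes were lower and 12.4% higher. Dusp1 stood at -2.95.

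The MAP kinases themselves had counts near the shares of all genes in miR-155 cells. None of 15 MAP kinase pathway genes was higher with stimulation in miR-155 cells and 1 was lower, Map3k1, at -0.64. In control cells 2 were higher, near the 12.4% of all genes, and 5 lower, where 15.2% of all genes were, with medians of -0.13 in miR-155 cells and -0.29 in control cells. The lowest in control cells were Mapk14, which encodes p38 alpha (-0.25 in miR-155 cells, -1.34 in control cells), Map3k1 (-0.64 and -1.25), Map3k8 (-0.06 and -1.12) and Map3k5 (0.11 and -0.99). Of 14 genes that control Fos and Jun transcription or stability, none was higher and 2 were lower with stimulation in miR-155 cells, against 3 higher and 2 lower in control cells, where both other scalings left none lower. The 2 lower in miR-155 cells were Srf (-0.998 in miR-155 cells, -0.15 in control cells) and Elk1 (-0.86 and -0.07), which together bind the serum response element of Fos. Zfp36, a protein that promotes decay of AU-rich messenger RNAs, stood at -0.58 in miR-155 cells and 1.22 in control cells, and the ubiquitin ligase gene Itch at -0.06 and 0.79.

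**Figure D4:**
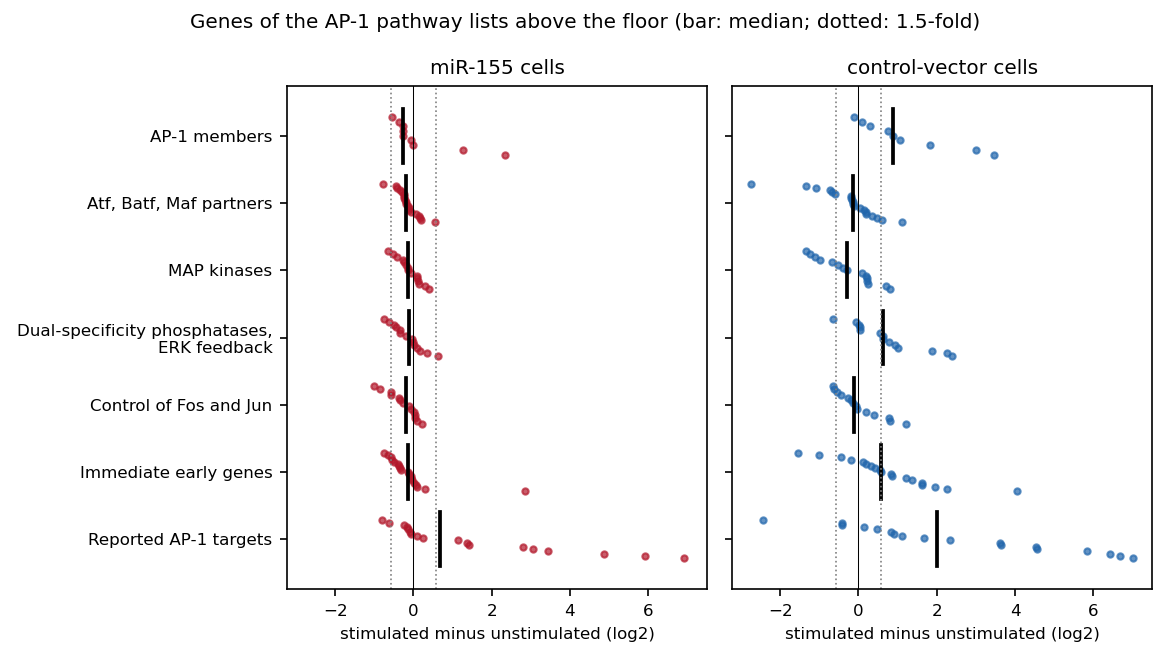
Stimulated minus unstimulated differences (log2) of the genes above the floor in each list, in miR-155 cells (left) and control-vector cells (right); 1 point per gene, black bars are list medians and dotted lines mark 1.5-fold. The AP-1 genes, the brakes on MAP kinases and the immediate early genes have medians of -0.26, -0.11 and -0.13 in miR-155 cells and 0.87, 0.62 and 0.58 in control cells.

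Another list holds other bZIP factors, only some of which can pair with Fos or Jun proteins. Of 20 above the floor, 0 were past 1.5-fold higher with stimulation in miR-155 cells. Nfil3 (-0.78) was the 1 lower, and both counts are near the 3.43% and 3.74% of all genes. In control cells 2 were higher and 6 lower, or 3 lower with array medians centred. Atf3, a stress-induced factor that dimerises with Jun proteins, read 7.69 in stimulated and 8.13 in unstimulated miR-155 cells, against 6.30 in stimulated and 9.04 in unstimulated control cells. Its difference was -0.44 in miR-155 cells and -2.74 in control cells, the opposite direction to Fosl2 and Jdp2. Nfe2l2, which encodes the antioxidant regulator NRF2 (-0.24 and -1.34), and Creb1, the cyclic AMP response factor (0.07 and -1.09), were lower in control cells, and the small Maf gene Maff was higher there (0.20 and 1.12).

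Genes reported elsewhere as AP-1 targets had the highest median difference of the lists in both miR-155 and control cells. Of 18 above the floor, in miR-155 cells 9 were past 1.5-fold higher and 2 lower, against 13 higher and 1 lower in control cells, with medians of 0.69 in miR-155 cells and 2.01 in control cells. With the genes below the floor included, the medians were 0.12 and 0.90. Several of them, among them Acp5, Ctsk, Mmp9, Nfatc1, Oscar and Itgb3, are also among the osteoclast markers. Of those 10 markers, 9 were past 1.5-fold higher with stimulation in miR-155 cells and 10 in control cells. The list's highest median is thus no separate result about AP-1, as the lists were chosen with earlier results known. Plau, the urokinase gene, was higher by 2.79 in miR-155 cells and 4.56 in control cells, and Itgb3, an integrin subunit of osteoclasts, by 1.14 and 3.61. Ccnd1, which encodes cyclin D1, was the gene lower in control cells, at -2.44, and stood at -0.63 in miR-155 cells. Between the vectors with stimulation, 14 of 18 were lower in miR-155 cells and 1 higher, Ccnd1 by 2.30. Mmp14 was the lowest, at -3.58, followed by Mmp9 at -2.68, Plau at -2.61 and Oscar at -2.56. Timp1, Il1b, Mmp3, Mmp13 and Ifnb1 lay below the floor on all 4 arrays.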

How the data were processed

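RNA from 4 RAW 264.7 samples was hybridised to 1 array each, from 100 ng of total RNA, per the labels' protocols. The deposited values are log2 expression values; the submitters' processing notes name Partek and RMA, without versions or a genome build. Normalization of this kind forces near-equal distributions (array medians 4.58 to 4.62), which hides any global shift in RNA content. Arrays give no read depth.

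Of 35557 probe sets, 21789 had 1 gene symbol, 1621 several and 12147 none; the highest-mean probe set stood for each gene. Differences of log2 values were computed, and limma 3.58.1 (R 4.3.3) fitted the additive model with Benjamini-Hochberg adjustment over all genes above the floor; its step was tested on simulated data. Python 3.11.15, numpy 2.4.6, pandas 2.3.3 and matplotlib 3.10.9 were used. The members and lists were chosen with earlier results of these data known. Named genes are the 9 members, per list and comparison up to 4 genes ranked by absolute difference, and the 3 genes nearest to a member; Klf4, Klf10, Ccnd1, Nfatc1 and Batf were added after their values were seen. Alternatives were array centring, renewed quantile normalization, averaged probe sets, no floor, values raised to the floor, a 2-fold threshold and, in limma, an intensity trend.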

Additional observations from a re-analysis of the deposited data

Results flagged for a closer look

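For 4 members the response to stimulation pointed one way in miR-155 cells and the other way in control cells. Each response rests on 1 array a group, and the difference was not tested. Over all genes above the floor, 45.1% of the responses were positive in miR-155 cells and 47.8% in control cells. The share of all genes with opposite directions was not counted, so the 4 are not shown to be unusual. Junb stood at -0.27 in miR-155 cells and 1.05 in control cells, Jund at -0.26 and 0.87, Jun at -0.27 and 0.29, and Fosl1 at -0.54 and 0.10 (log2). Both values for Jun, the miR-155 values for Junb and Jund and the control value for Fosl1 lay within the noise reference. Fosb had -0.05 in miR-155 cells and 0.76 in control cells, but its miR-155 values were below the floor, so no direction can be given there. No group has enough arrays to look for an array that stands apart within it.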

How the results depend on the processing

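Under the alternatives, 225 values of the 45 member differences were computed. None changed by more than the noise reference and none past 1.5-fold turned its direction. Many of the 225 could not change: only array centring and renewed quantile normalization could move members other than Fosb. The side of 1.5-fold changed for 2 of the 45: Fos without stimulation, 0.53 here and up to 0.59, and the difference of the responses for Jun, -0.56 here and down to -0.70. With array medians centred, 1 member was higher in miR-155 cells without stimulation, against 0 here. At 2-fold, 4 members were lower in miR-155 cells with stimulation and 4 in the difference of the responses, against 7 in each here. Of all 13545 genes above the floor, 753 and 629 were lower at 2-fold. The 7 include Fosb, whose miR-155 values lie below the floor. Without it, a count added after seeing the data, 3 and 4 members were lower at 2-fold and 6 and 6 at 1.5-fold. Centring moved the median difference of all genes with stimulation in control cells to 0.13, against -0.02 here, and that of the difference of the responses to -0.18, against -0.03. The additive limma fit called 0 genes for stimulation here, 2 after renewed quantile normalization, 4 with array medians centred and 2 with an intensity trend, and no member in any setting. Of 3435 values for the lists and their genes, 54 moved by more than the noise reference or by over 1.5 times in a count, and no difference past 1.5-fold turned round. Each member has 1 probe set, so averaging probe sets could not change it. Dropping the floor left each member difference as it was, and raising values to the floor could change Fosb alone. No array could be left out, since each group has 1. The floor limits Fosb, which has no measured response in miR-155 cells.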
